A study of Mus musculus with 6 samples.

Results

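Long noncoding RNAs (lncRNAs) are transcripts that are not known to be translated, and the abundant ones on the mouse autosomes were followed here in RNA of CD8+ T cells from the liver. The rows were chosen by 3 entries of the deposited count table: an annotated biotype of lncRNA, lincRNA, antisense or processed_transcript, a place on chromosomes 1 to 19, and a mean of at least 10 CPM (counts divided by the library total and scaled to a common total) over the 6 libraries. Of 54532 rows, 8438 carried such a biotype on an autosome and 118 of those reached that level. They comprised 59 lincRNA, 23 antisense and 36 processed_transcript rows, and no row carried the label lncRNA itself. Some of them bear symbols of genes known to encode proteins, such as Ifi30, Tmem134, Zswim6, Trerf1 and Cct6a. All 118 are called lncRNAs here by the annotated biotype alone. The level that chose them was averaged over both groups, and is given as a description. All 118 passed the filter on low counts, and the lowest count of any of them in any library was 82.

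The study sequenced bulk RNA of CD8+ T cells, which destroy infected and tumour cells, purified from livers of CUMS mice and of control mice, all labelled wild type, with 3 libraries in each group. The labels leave CUMS unexplained, and the series text places it in chronic stress. The sources used here do not give strain, sex or age of the mice, the length of the treatment, or whether a library came from 1 animal or a pool. The p-values therefore weigh the difference between the groups against the spread among these libraries, and that spread could be technical variation.

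Total counts were 14902248 to 18012387 in CUMS libraries and 17642478 to 18023206 in control libraries. CUMS replicates 2 and 3 stood apart, with reads on 15012 and 14670 genes, against 20292 genes in CUMS replicate 1 and 17616 to 19713 genes in the controls. CD8+ T cell identity markers, 8 genes, summed to 4567 to 5010 CPM in CUMS libraries and 3903 to 4252 CPM in control libraries, and none was at 0. CD4+ T cell markers, 8 genes, summed to 233 to 251 CPM in CUMS libraries and 488 to 533 CPM in control libraries, and 5 of them fell. That count was 1, 2 and 1 without control replicate 2, control replicate 3 and CUMS replicate 2, and 1 without CUMS replicates 2 and 3, with 7 lower at an unadjusted p under 0.05 in each of these fits. Monocyte and neutrophil markers, 12 genes, summed to 2762 to 3032 CPM in CUMS libraries and 3999 to 6119 CPM in control libraries, and 5 of them fell. That count was 1, 1 and 0 without control replicate 2, control replicate 3 and CUMS replicate 2, and 0 without CUMS replicates 2 and 3, where 9, 11, 10 and 10 were lower at an unadjusted p under 0.05. Of 11 macrophage markers 5 could be tested and 2 fell, with Timd4 at 0 in every library, and their sum was 29.5 to 33.3 CPM in CUMS libraries and 60.0 to 83.8 CPM in control libraries. In those 4 fits no macrophage marker passed and 3 were lower at an unadjusted p under 0.05. NK cell markers, 8 genes, summed to 183 to 190 CPM in CUMS libraries and 239 to 336 CPM in control libraries. Of the B cell markers, 8 genes, the sum was 678 to 770 CPM in CUMS libraries and 659 to 718 CPM in control libraries, and 10 hepatocyte markers summed to 13.1 to 26.0 CPM in CUMS libraries and 9.62 to 13.0 CPM in control libraries. No NK, B or hepatocyte marker passed the edgeR test. At an unadjusted p under 0.05, 4 NK and 1 B cell marker were lower and 1 hepatocyte marker was higher. DESeq2 called 3 NK and 1 B cell marker lower and 0 hepatocyte markers. Log2 fold changes were negative for all 8 NK markers, positive for 6 and negative for 2 B cell markers, and positive for all 6 hepatocyte markers that could be tested. Apart from a fit with a marker level as covariate, given further on, the part of these other cells in the lncRNA results was not tested, and in bulk RNA fewer cells of a type and less RNA per cell cannot be told apart.

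Several lncRNAs act in the nucleus. Neat1 is the architectural RNA of paraspeckles, nuclear bodies that hold RNA-binding proteins, and Malat1 lies in nuclear speckles beside pre-mRNA splicing factors. Other lncRNAs are host genes whose introns carry small nucleolar RNAs (snoRNAs), which guide the chemical modification of ribosomal RNA. Their spliced transcripts are often degraded by nonsense-mediated decay, and several begin with a pyrimidine-rich start like that of ribosomal protein genes. Another class carries microRNAs, short RNAs that pair with messenger RNAs through a seed at bases 2 to 8. Antisense lncRNAs run across a gene of the other strand, and reads that fall on shared bases cannot be assigned without strand information. The sources used here do not state the strand setting of the counting.

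The promoter windows of 2 lncRNAs that rose and of 2 snoRNA hosts are shown because the later results turn on those groups. Each runs 5′ to 3′ from 250 bases before to 50 bases after a RefSeq start site (assembly GRCm38.p6), and capitals mark letters of a searched motif. A430088P11Rik rose and its window lies at chr15:80697561-80697860 on the minus strand. Gm32633 rose and its window lies at chr7:64001654-64001953 on the plus strand. Gas5, the host with the most snoRNA rows, has its window at chr1:161034351-161034650 on the plus strand, and Snhg15, a host of Snora9, at chr11:6528711-6529010 on the minus strand.
A430088P11Rik: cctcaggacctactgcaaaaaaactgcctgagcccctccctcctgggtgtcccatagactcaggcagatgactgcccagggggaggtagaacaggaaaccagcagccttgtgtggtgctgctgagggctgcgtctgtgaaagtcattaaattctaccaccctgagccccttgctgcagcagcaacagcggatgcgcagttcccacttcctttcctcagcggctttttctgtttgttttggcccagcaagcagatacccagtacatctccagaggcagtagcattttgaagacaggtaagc
Gm32633: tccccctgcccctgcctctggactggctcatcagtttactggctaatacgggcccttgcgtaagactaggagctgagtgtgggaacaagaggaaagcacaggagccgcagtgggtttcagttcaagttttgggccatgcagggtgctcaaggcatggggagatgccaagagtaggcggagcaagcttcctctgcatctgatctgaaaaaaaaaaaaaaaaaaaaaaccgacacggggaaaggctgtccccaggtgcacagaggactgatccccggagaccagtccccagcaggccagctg
Gas5: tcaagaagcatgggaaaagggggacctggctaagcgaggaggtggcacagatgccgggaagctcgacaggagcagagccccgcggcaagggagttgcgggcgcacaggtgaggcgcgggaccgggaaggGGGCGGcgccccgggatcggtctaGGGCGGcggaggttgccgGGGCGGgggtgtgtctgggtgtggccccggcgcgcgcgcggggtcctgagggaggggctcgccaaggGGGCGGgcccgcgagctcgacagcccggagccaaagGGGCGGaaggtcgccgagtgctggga
Snhg15: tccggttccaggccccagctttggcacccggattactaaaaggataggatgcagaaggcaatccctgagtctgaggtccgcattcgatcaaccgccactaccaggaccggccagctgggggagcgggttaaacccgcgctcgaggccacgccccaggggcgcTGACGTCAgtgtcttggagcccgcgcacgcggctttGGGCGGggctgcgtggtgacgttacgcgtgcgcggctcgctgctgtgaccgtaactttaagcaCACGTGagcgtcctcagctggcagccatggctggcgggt

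In these windows 9 motifs were searched on both strands: the GC box GGGCGG, the CCAAT box CCAAT, the TATA box TATAAA, the E-box CACGTG, the cAMP response element TGACGTCA, the hypoxia response core ACGTG, the heat shock core GAANNTTC, the AP-1 site TGANTCA and the glucocorticoid response element, GAACA followed after 3 bases by TGTTC. The hypoxia response core lies inside the E-box, so those 2 overlap. The windows of the first 2 genes held none of the 9. The Gas5 window held the GC box 5 times, at 121, 97, 79 and 12 bases before the start site and again within the transcript. The Snhg15 window held the cAMP response element 88 bases before the start site, a GC box 52 bases before it and the E-box just after it. Of the 118 lncRNAs, 69 matched a RefSeq start, and 33 of those starts lay within 10 bases of the deposited gene start. The Gas5 start lay 179 bases downstream of the deposited one, so all 5 of its GC boxes lie within the bounds of the counted row. The starts of A430088P11Rik and Snhg15 lay on the deposited ones. A GC box stood in 10 of the 12 snoRNA hosts matched and in 28 of the 69 lncRNAs, against 35.7% of all 32851 promoters in the RefSeq table. The E-box stood in 10 of the 69, against 7.15% of all promoters, the TATA box in 10, against 13.6%, the CCAAT box in 23, against 37.4%, and the hypoxia response core in 19, against 19.6%. The cAMP response element stood in 2 of the 69, against 1.79% of all promoters, the heat shock core in 3, against 7.86%, the AP-1 site in 2, against 7.81%, and the glucocorticoid response element in 0, against 0.0578%. A run of at least 6 pyrimidines whose first letter was C, within 10 bases of the RefSeq start, was found in 1 of the 12 hosts, AI506816. The same rule held for 15% of all promoters. Runs that opened with T were not counted even where a C followed, such as those across the starts of Snhg8, Snhg12 and 2410006H16Rik. The count is therefore no measure of how many hosts have a pyrimidine-rich start. A match is only a description of the letters.

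The 118 lncRNAs together took 0.574 to 0.65% of all counts in CUMS libraries and 0.527 to 0.61% in control libraries. The median lncRNA had 19.4 CPM, and 61 of the 118 lay between 10 and 20 CPM. Malat1 alone had 1072 CPM on average and held 17.2 to 17.9% of the lncRNA counts in CUMS libraries and 17.2 to 21.5% in control libraries. At the edge of the rule, 4930417O13Rik, Pvt1 and AC129328.1 lay just inside with means of 10.13, 10.04 and 10.01 CPM, and 5830432E09Rik, Gm33104 and Gm17275 lay just outside with 9.90, 9.87 and 9.77 CPM. Per kilobase of transcript the order was different. AW112010, a mouse transcript from which a small protein has been reported in macrophages, led with 171 CPM per kilobase, ahead of Malat1 with 154. Gm44174 with 100, Gm2682 with 98.9 and Gm10076 with 91.6 CPM per kilobase came next, and Kcnq1ot1, the imprinted antisense RNA of the Kcnq1 locus, was lowest with 0.168 over its 93092 bases.

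Of the 118 lncRNAs, 6 rose in CUMS cells, none fell and 112 did not pass the test (edgeR quasi-likelihood, Benjamini-Hochberg adjusted p under 0.05 over 14054 genes). The 6 were Arhgap27os3, Neat1, 2010016I18Rik, A430088P11Rik, Gm32633 and 5830428M24Rik. Among all genes tested 0.363% were called higher and 0.946% lower, and among the 8834 genes of at least 10 CPM 0.566% were called higher and 1.47% lower. The share of lncRNAs called higher was 5.08%. At an unadjusted p under 0.05, 32 lncRNAs were higher and 4 lower, and DESeq2 called 12 higher and 1 lower, AU020206. Over all 14054 genes 992 were higher and 1155 lower at an unadjusted p under 0.05, and over the 8834 genes of at least 10 CPM 786 and 973. DESeq2 called 206 higher and 415 lower among the 14054, and 179 and 378 among the 8834. Log2 fold changes of CUMS over control were positive for 78 and negative for 40, with a median of 0.17, beside -0.01 over all genes tested and -0.01 over genes of at least 10 CPM. CUMS and control libraries did not overlap for 29 lncRNAs with CUMS above and 7 with CUMS below. The background for that count was 10.8% above and 11.9% below over all genes tested, and 11.9% above and 13.5% below over genes of at least 10 CPM.

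In the fit of all 6 libraries without a covariate, the median was larger between 10 and 20 CPM than at 20 CPM or more. Between 10 and 20 CPM 47 of 61 were positive with a median log2 fold change of 0.31. At 20 CPM or more 31 of 57 were positive with a median of 0.03, which was -0.04 without CUMS replicate 1 and 0.18 without CUMS replicate 3. Among these, 15 of the 23 lncRNAs of at least 50 CPM were positive with a median of 0.12. The median thus did not fall steadily with level. Without CUMS replicates 2 and 3 the medians lay closer, 0.27 below 20 CPM and 0.23 at 20 CPM or more. With the marker level as covariate they were 0.21 and 0.16. Protein-coding genes of 10 to 20 CPM had a median of 0.04 with 53.5% positive, and those of at least 20 CPM a median of -0.01. Autosomal rows of the same biotypes below 10 CPM that could be tested, 817 in number, had a median of 0.19. None of these passed with edgeR, 50 were higher and 7 lower at an unadjusted p under 0.05, and DESeq2 called 9 higher and 1 lower. The median of the 118 stayed between 0.13 and 0.22 when each library was left out in turn.

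**Figure D1:**
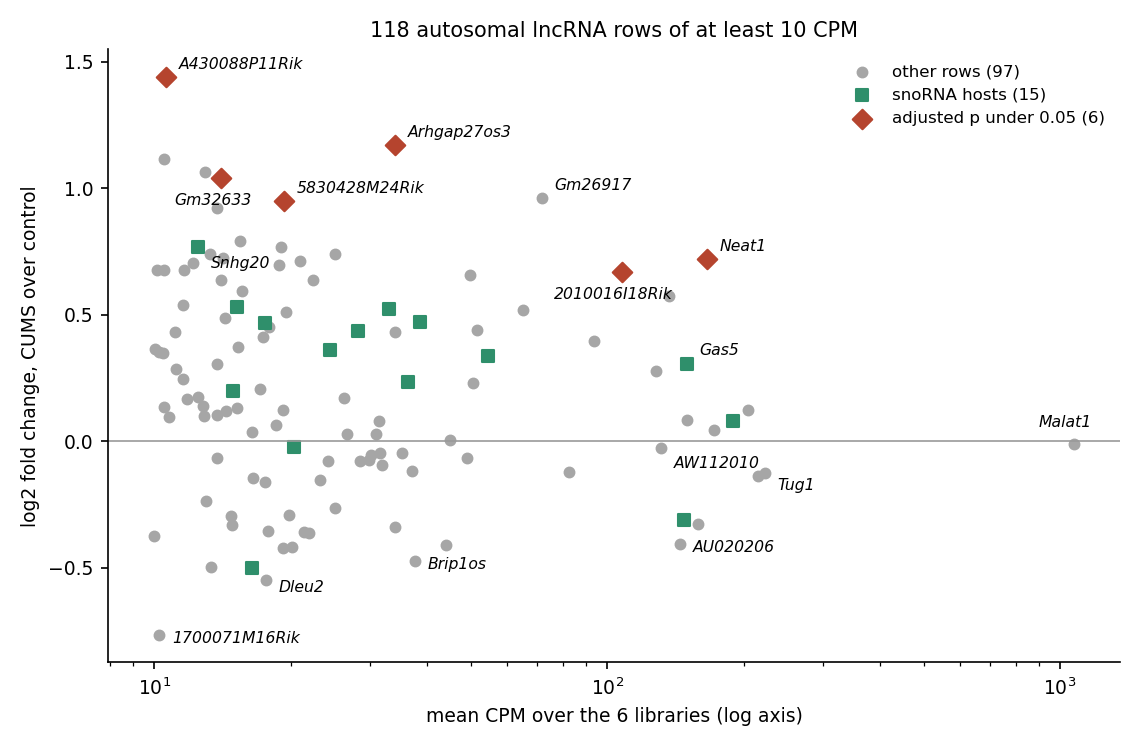
Log2 fold change of CUMS over control (vertical) against mean CPM over the 6 libraries (horizontal, log axis) for the 118 lncRNA rows, with the 15 snoRNA hosts as squares and the 6 called rows as diamonds. All 6 called rows lie above 0, and Malat1, the most abundant row, lies near 0.

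**Figure D2:**
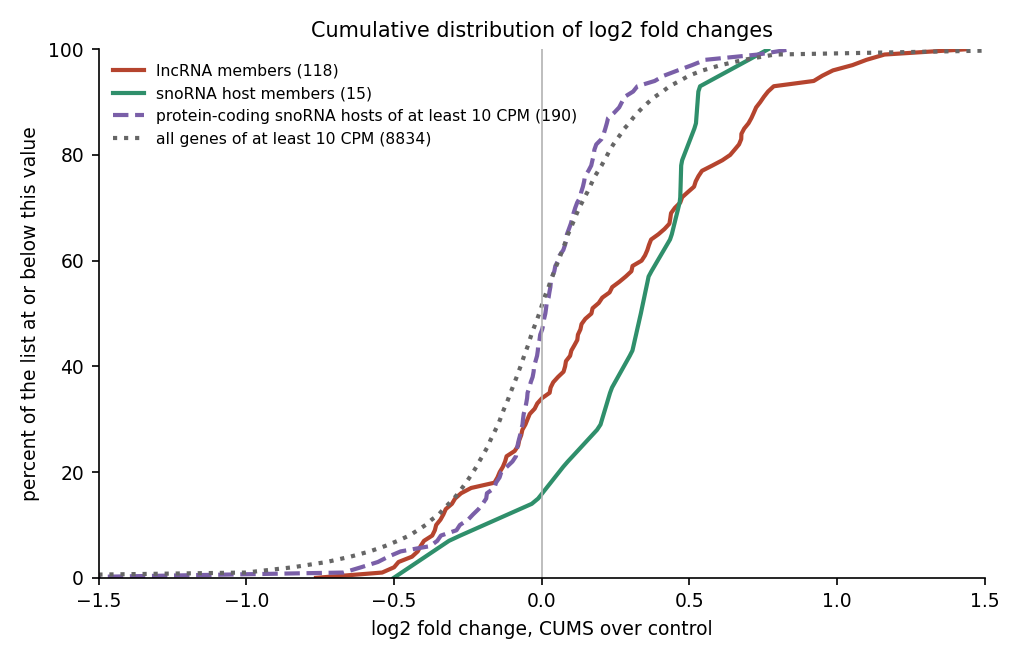
Cumulative distribution of log2 fold changes for the 118 lncRNAs, the 15 snoRNA hosts among them, 190 protein-coding snoRNA hosts and 8834 genes of at least 10 CPM. The lncRNA curve crosses its middle at 0.17, the snoRNA host curve at 0.34 and the protein-coding host curve at 0.01.

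Neat1, the paraspeckle RNA, rose in CUMS cells. It had 183, 223 and 212 CPM in CUMS replicates 1, 2 and 3, against 131, 131 and 114 CPM in control replicates 1, 2 and 3. Every CUMS library lay above every control library, and the means were 206 ± 20.3 CPM in CUMS cells and 125 ± 9.91 CPM in control cells (SD, n = 3 each). It rose 1.65-fold (log2 fold change 0.72 ± 0.12, SE; edgeR adjusted p = 0.0193). Neat1 is a single-exon row of 20771 bases at chr19:5824708-5845478 on the minus strand, and its nearest tested coding gene, Frmd8, had a log2 fold change of -0.10 (adjusted p = 0.743). Malat1, its neighbour on chromosome 19, had 1106, 1092 and 1010 CPM in CUMS replicates 1, 2 and 3, against 926, 980 and 1325 CPM in control replicates 1, 2 and 3. Its groups overlapped and its log2 fold change was -0.01 ± 0.13 (edgeR adjusted p = 0.985), with a sign that turned with the scaling by library size alone (0.03).

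Of the 12 paraspeckle proteins listed beside Neat1, none passed the edgeR test, and 1 was higher and 1 lower at an unadjusted p under 0.05. Their log2 fold changes, 7 positive and 5 negative, ran from -0.35 to 0.49 with a median of 0.02. Sfpq, a core paraspeckle protein, averaged 367 ± 19.2 CPM in CUMS cells and 467 ± 34.04 CPM in control cells (log2 fold change -0.35 ± 0.10, adjusted p = 0.13). DESeq2 called 1 paraspeckle gene higher and 1 lower.

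Arhgap27os3, an antisense row of 4 exons at chr11:103344753-103350124 on the plus strand, had 40.8, 55.4 and 44.6 CPM in CUMS replicates 1, 2 and 3, against 22.7, 19.8 and 20.1 CPM in control replicates 1, 2 and 3. The groups did not overlap and the log2 fold change was 1.17 ± 0.17, 2.25-fold, and the edgeR adjusted p was 0.0132. It runs opposite the protein-coding gene Arhgap27, with 0 shared exon bases. Arhgap27 averaged 119 ± 14 CPM in CUMS cells and 115 ± 9.88 CPM in control cells, with a log2 fold change of 0.06 ± 0.13 (adjusted p = 0.892).

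2010016I18Rik, a processed transcript of 2 exons at chr3:106481982-106485913 on the minus strand, had 132, 141 and 123 CPM in CUMS replicates 1, 2 and 3, against 76.2, 83.7 and 89.3 CPM in control replicates 1, 2 and 3. All CUMS values lay above all control values, and the log2 fold change was 0.67 ± 0.12 (edgeR adjusted p = 0.0229). It shares 407 exon bases with Dennd2d, a DENN domain gene of the opposite strand. Dennd2d rose as well, to 293 ± 29.4 CPM in CUMS cells, against 197 ± 12.4 CPM in control cells (log2 fold change 0.58 ± 0.11, adjusted p = 0.0345). It passed in 1 of the 6 fits without 1 library, and without CUMS replicates 2 and 3 its log2 fold change was 0.55 (adjusted p = 0.175). As the strand setting of the counting is not stated, it is unknown whether reads on the shared bases were told apart between the pair.

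A430088P11Rik, an antisense row at chr15:80691025-80697610 on the minus strand, had 15.6, 12.6 and 18.4 CPM in CUMS replicates 1, 2 and 3, against 5.49, 5.90 and 5.73 CPM in control replicates 1, 2 and 3. It had the largest log2 fold change of the 118 lncRNAs, 1.44 ± 0.25 (2.71-fold, edgeR adjusted p = 0.0231), and its groups did not overlap. It shares 686 exon bases with the opposite-strand gene Fam83f, which averaged 1.73 ± 1.83 CPM in CUMS cells and 0.679 ± 0.295 CPM in control cells (adjusted p = 0.706).

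Gm32633, a lincRNA row of 6 exons and 720 bases at chr7:64001885-64020959 on the plus strand, had 18.4, 19.2 and 18.9 CPM in CUMS replicates 1, 2 and 3, against 8.61, 10.2 and 8.71 CPM in control replicates 1, 2 and 3. The log2 fold change was 1.04 ± 0.21 (edgeR adjusted p = 0.0365). 5830428M24Rik, at chr12:69464787-69475550 on the minus strand, had 22.02, 27.8 and 26.3 CPM in CUMS replicates 1, 2 and 3, against 10.99, 13.6 and 14.8 CPM in control replicates 1, 2 and 3. Its log2 fold change was 0.95 ± 0.20 (edgeR adjusted p = 0.046). Neither row overlaps a coding gene, and neither showed overlap between its groups.

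These 6 calls were narrow. In the 6 fits that left out 1 library each, Arhgap27os3 passed in 3 and had adjusted p of 0.0627 without CUMS replicate 2, 0.0815 without control replicate 2 and 0.0592 without control replicate 3. Neat1 passed in 2, without CUMS replicate 1 and without CUMS replicate 3, and had adjusted p of 0.0639, 0.0969 and 0.0689 without control replicates 1, 2 and 3 and 0.0819 without CUMS replicate 2. 2010016I18Rik, A430088P11Rik and Gm32633 passed only without CUMS replicate 3, and their adjusted p in the other 5 fits was 0.054 to 0.133, 0.0619 to 0.131 and 0.0689 to 0.172. 5830428M24Rik passed in none, with adjusted p of 0.0657 to 0.222. Every one of the 6 kept a positive log2 fold change in all of these fits, and the smallest was 0.60. None of the 118 passed without CUMS replicate 2, control replicate 2 or control replicate 3. At an unadjusted p under 0.05, 29, 23 and 29 were higher in these 3 fits and 7, 2 and 4 lower. Over the 14054 genes the 3 fits called 1, 2 and 10 higher and 8, 17 and 36 lower. Of these genes, 866, 590 and 709 were higher and 1070, 718 and 1024 lower at an unadjusted p under 0.05. Without CUMS replicate 3, 7 of the 118 passed, and 178 of 14839 genes. Without CUMS replicates 2 and 3 together, the log2 fold changes were 0.96 for Arhgap27os3, 0.55 for Neat1 and 0.67 for 2010016I18Rik. They were 1.44 for A430088P11Rik, 1.001 for Gm32633 and 0.74 for 5830428M24Rik. When the mean level of monocyte and neutrophil markers entered the fit as a covariate, none of the 118 and none of the 14054 genes passed, and at an unadjusted p under 0.05 1 lncRNA was higher and 0 were lower, and 55 genes were higher and 52 lower. That marker level separated the groups itself. In that fit the log2 fold changes of the 6 were 0.69 to 1.54.

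**Figure D3:**
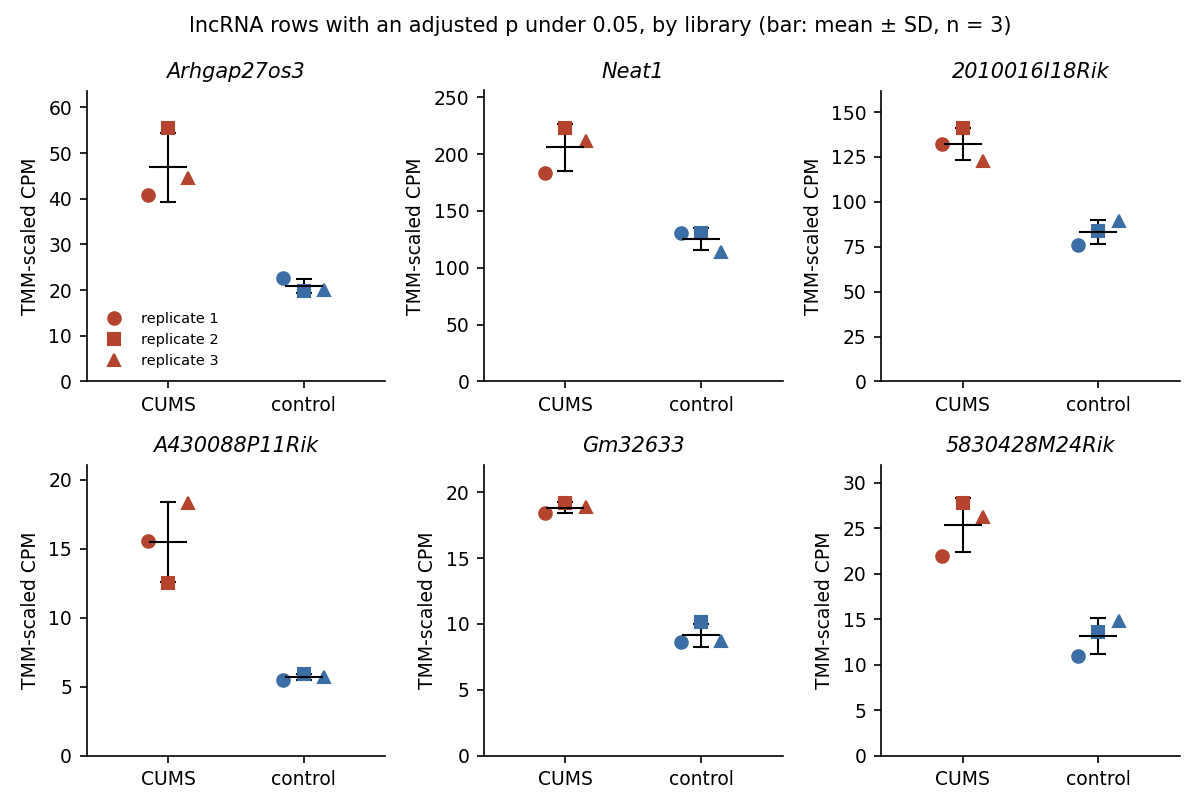
TMM-scaled CPM of the 6 called lncRNAs by library, CUMS left of control, with marker shapes for replicates 1 to 3 and bars for mean ± SD (n = 3). In each panel the lowest CUMS library lies above the highest control library.

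Gm30948 (log2 fold change 1.12 ± 0.26, edgeR adjusted p = 0.0616) and Gm39323 (1.07 ± 0.28, edgeR adjusted p = 0.0871) were among the 5 largest positive log2 fold changes, did not pass the edgeR test and were among the 12 that DESeq2 called higher. Gm44174, which followed Malat1 in level per kilobase, ends 142 bases before the gene of the CD8 alpha chain, Cd8a, on the same strand of chromosome 6. It had 21.96, 13.4 and 17.6 CPM in CUMS replicates 1, 2 and 3, against 12.0, 8.66 and 11.5 CPM in control replicates 1, 2 and 3. The groups did not overlap, and the log2 fold change was 0.72 ± 0.25 (adjusted p = 0.192). Cd8a rose to 1180 ± 32.8 CPM in CUMS cells, against 800 ± 51.7 CPM in control cells (log2 fold change 0.56 ± 0.09, adjusted p = 0.0225). It passed in 3 of the 6 fits without 1 library, and without CUMS replicates 2 and 3 its log2 fold change was 0.60 (adjusted p = 0.145). Of the 29 lncRNAs whose nearest tested coding gene lay 1 to 5000 bases away, 19 had the sign of that gene, and Cd8a was the only such gene past the threshold.

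The largest negative log2 fold changes were those of 1700071M16Rik, Dleu2, Gm15832, Gm15674 and Brip1os, and none of the 5 passed with edgeR or DESeq2. They ran from -0.76 to -0.47. 1700071M16Rik had 10.6, 6.90 and 5.41 CPM in CUMS replicates 1, 2 and 3, against 9.80, 15.01 and 14.2 CPM in control replicates 1, 2 and 3. Its groups overlapped and its log2 fold change was -0.76 ± 0.31 (adjusted p = 0.262). It shares 319 exon bases with Pla2g7, which encodes a secreted phospholipase that degrades platelet-activating factor and is known from macrophages. Pla2g7 fell to 53.7 ± 15 CPM in CUMS cells, against 129 ± 38.3 CPM in control cells (log2 fold change -1.27 ± 0.23, adjusted p = 0.0276), and passed in 2 of the 6 fits without 1 library. Without CUMS replicates 2 and 3 the log2 fold change of Pla2g7 was -1.12 (adjusted p = 0.203). Brip1os had 43.6, 18.9 and 32.7 CPM in CUMS replicates 1, 2 and 3, against 46.1, 43.4 and 42.7 CPM in control replicates 1, 2 and 3, so that CUMS replicate 2 was the lowest and CUMS replicate 1 lay among the controls. AU020206 had 127, 133 and 116 CPM in CUMS replicates 1, 2 and 3, against 161, 154 and 182 CPM in control replicates 1, 2 and 3, without overlap (log2 fold change -0.40 ± 0.11, edgeR adjusted p = 0.11, DESeq2 adjusted p = 0.0263).

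In all, 42 lncRNAs overlapped a coding gene on the opposite strand, 31 of them with shared exon bases, and 10 overlapped one on the same strand, while 51 overlapped no other gene apart from small RNA genes. For the 47 opposite-strand pairs in which both rows were tested, 25 had the same sign. The Spearman correlation of the log2 fold changes was 0.19 across pairs, which share libraries and may in part share reads. Among the 51 lncRNAs with no overlap, 3 rose and the median log2 fold change was 0.21. Among the 31 with shared exon bases, 2 rose and the median was 0.28.

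**Figure D4:**
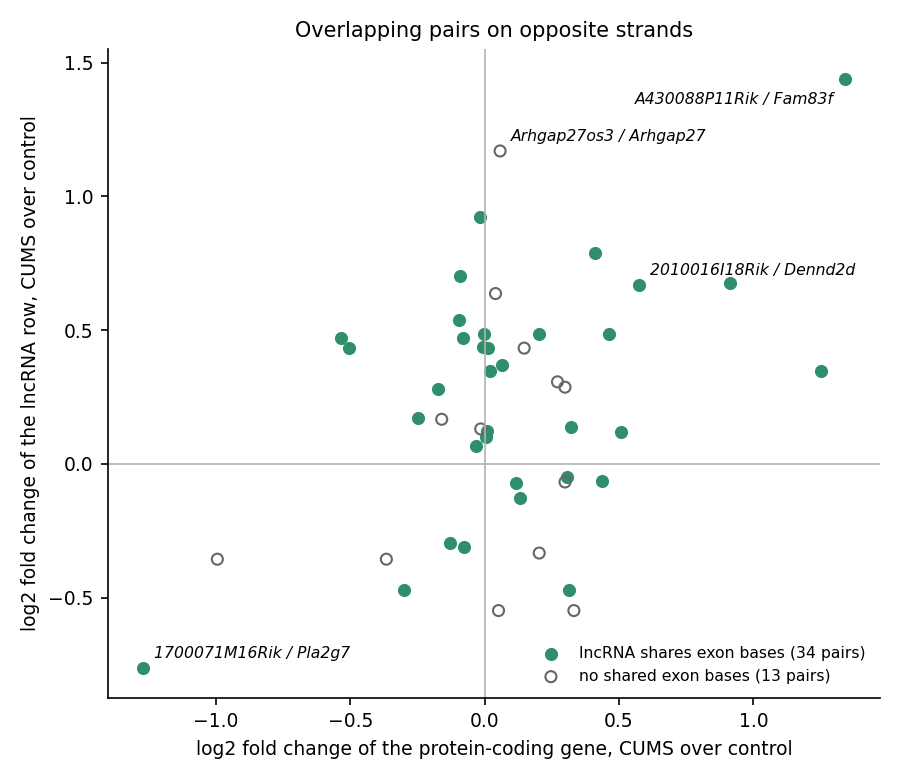
Log2 fold change of the lncRNA row (vertical) against that of the protein-coding gene on the opposite strand (horizontal), CUMS over control, for 47 overlapping pairs, filled where the lncRNA shares exon bases with a coding gene. The points spread over all 4 quadrants, with 25 pairs of the same sign.

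Of the 118 lncRNAs, 15 carried annotated snoRNA rows inside their bounds, 10 in Gas5, 8 in Snhg1, 5 in Snhg12 and 1 to 3 in each of the others. The annotated exons of Snhg1, Snhg12, Zfas1 and Snhg8 merge into 1 stretch that also holds the snoRNA rows. Counts on these hosts therefore do not separate spliced from unspliced RNA. None of the 15 passed the test with edgeR or DESeq2, and 3, Snhg17, Snhg20 and Snhg15, were higher at an unadjusted p under 0.05. Their log2 fold changes were positive for 12 and negative for 3, Cct6a, Gm15832 and Snhg8, with a median of 0.34. AI506816 is counted here through Mir3096, which the table annotates as a snoRNA, and the 10 in Gas5 include Mir5117 under the same label. The snoRNA host Gas5, whose RNA binds the glucocorticoid receptor in human cells, had 203, 180 and 114 CPM in CUMS replicates 1, 2 and 3, against 132, 121 and 149 CPM in control replicates 1, 2 and 3. CUMS replicate 3 was the lowest of the 6 libraries for Gas5 and CUMS replicate 1 the highest, and the log2 fold change was 0.31 ± 0.18 (adjusted p = 0.489). Without CUMS replicate 3 it was 0.51 (adjusted p = 0.0819), and without CUMS replicate 1 it was 0.12 (adjusted p = 0.777).

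The same library order ran through the hosts. Relative to the mean of the control libraries, the median host had a log2 ratio of 0.60 in CUMS replicate 1, 0.35 in CUMS replicate 2 and 0.02 in CUMS replicate 3. CUMS replicate 3 was the lowest of the 3 CUMS libraries for 10 of the 15 hosts and CUMS replicate 1 the highest for 9. The other 103 lncRNAs had medians of 0.24, 0.20 and 0.07 in CUMS replicates 1, 2 and 3, with CUMS replicate 3 the lowest for 47 and CUMS replicate 1 the highest for 34. The 190 protein-coding snoRNA hosts described further on had medians of 0.11, -0.01 and -0.03, with CUMS replicate 3 the lowest for 64 and CUMS replicate 1 the highest for 91. The difference between these groups was not tested. The median log2 fold change of the 15 was 0.19 without CUMS replicate 1 and 0.51 without CUMS replicate 3, and 0.60 without CUMS replicates 2 and 3. Snhg1 had 75.3, 60.7 and 46.5 CPM in CUMS replicates 1, 2 and 3, against 40.1, 46.8 and 57.7 CPM in control replicates 1, 2 and 3 (log2 fold change 0.34 ± 0.19, adjusted p = 0.462). Snhg12 had 39.99, 36.5 and 20.7 CPM in CUMS replicates 1, 2 and 3, against 26.3, 24.3 and 21.1 CPM in control replicates 1, 2 and 3 (log2 fold change 0.44 ± 0.23, adjusted p = 0.423). Both had 2 CUMS libraries above every control, with CUMS replicate 3 lower. Zfas1, the antisense host at the Znfx1 gene, had 52.5, 51.0 and 31.0 CPM in CUMS replicates 1, 2 and 3, against 36.0, 37.1 and 23.95 CPM in control replicates 1, 2 and 3 (log2 fold change 0.47 ± 0.23, adjusted p = 0.363). Snhg15 had 19.4, 21.4 and 13.1 CPM in CUMS replicates 1, 2 and 3, against 12.0, 12.0 and 13.4 CPM in control replicates 1, 2 and 3 (log2 fold change 0.53 ± 0.23, adjusted p = 0.302). Snhg17 and Snhg5, with log2 fold changes of 0.52 ± 0.20 and 0.36 ± 0.20, also had CUMS replicates 1 and 2 above every control library and CUMS replicate 3 within the control range or below it.

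The hosts did not all follow that order. Snhg6 had 25.8, 16.9 and 18.6 CPM in CUMS replicates 1, 2 and 3, against 13.99, 16.3 and 14.04 CPM in control replicates 1, 2 and 3, and its groups did not overlap (log2 fold change 0.47 ± 0.22, adjusted p = 0.337). Snhg20 also had no overlap, with 15.8, 17.6 and 13.9 CPM in CUMS replicates 1, 2 and 3, against 13.0, 9.89 and 4.81 CPM in control replicates 1, 2 and 3 (0.77 ± 0.32, adjusted p = 0.286). Cct6a, the one host whose CUMS libraries all lay below the controls, averaged 132 ± 27.9 CPM in CUMS cells and 164 ± 13.4 CPM in control cells (log2 fold change -0.31 ± 0.15, adjusted p = 0.374). It is annotated as a processed transcript although its symbol is that of a subunit of the chaperonin that folds actin and tubulin. Gm15832, which shares exon bases with Rnf149 on the same strand, averaged 13.7 ± 4.96 CPM in CUMS cells and 19.4 ± 3.40 CPM in control cells. Snhg8 averaged 20.3 ± 7.47 CPM in CUMS cells and 20.6 ± 2.60 CPM in control cells, and AI506816 194 ± 31.9 CPM in CUMS cells and 184 ± 19.8 CPM in control cells. Epb41l4aos and 2410006H16Rik had log2 fold changes of 0.20 ± 0.21 and 0.24 ± 0.17.

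**Figure D5:**
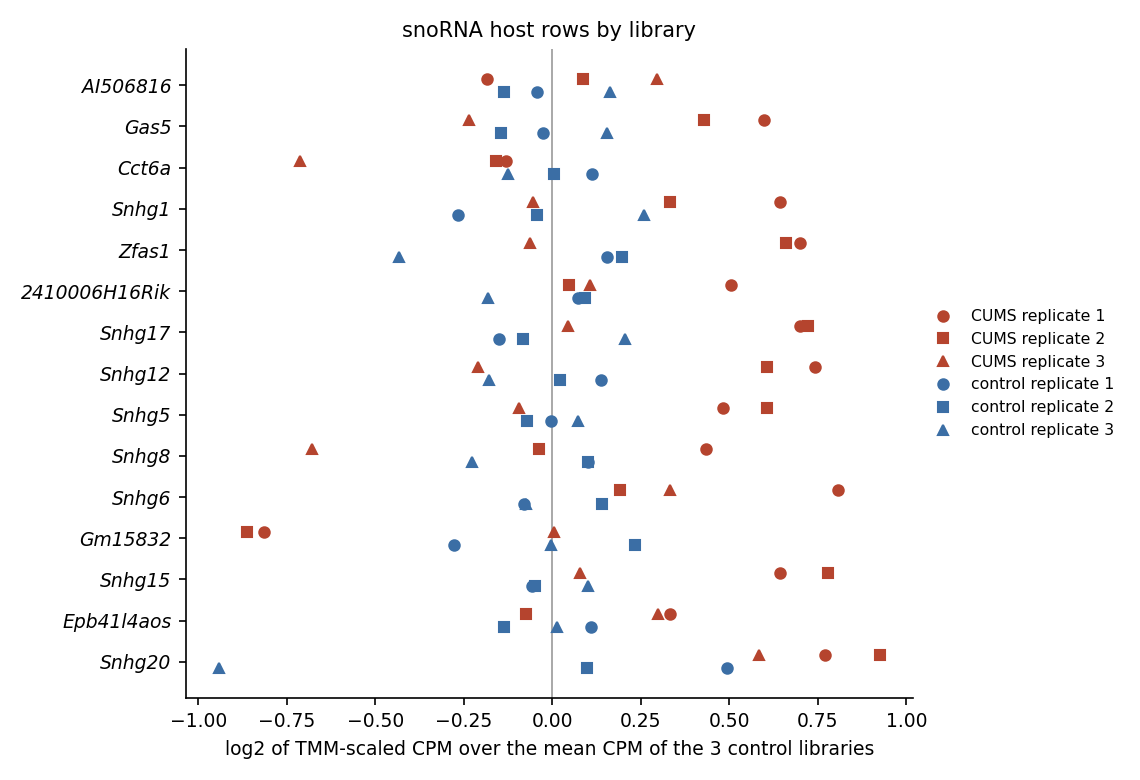
Log2 of the TMM-scaled CPM over the mean of the control libraries for each of the 15 snoRNA hosts (rows, by mean level), with CUMS libraries above the control libraries within a row. CUMS replicates 1 and 2 lie to the right for most hosts, and CUMS replicate 3 is the lowest of the CUMS libraries for 10.

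Many protein-coding genes carry snoRNAs in their introns as well. Of protein-coding genes of at least 10 CPM, 190 held a snoRNA row inside their bounds on the same strand. Whether each snoRNA lay in an intron was not checked. Of the 190, none rose and 2 fell, and their median log2 fold change was 0.01. DESeq2 called 2 higher and 7 lower, and 14 were higher and 17 lower at an unadjusted p under 0.05. The 2 that fell were Hspa8, the constitutive HSP70 chaperone (log2 fold change -0.82 ± 0.09, adjusted p = 0.00369), and the sialyltransferase gene St3gal2 (-1.69 ± 0.25, adjusted p = 0.0136). Hspa8 passed in 5 and St3gal2 in 2 of the 6 fits without 1 library, and without CUMS replicates 2 and 3 their log2 fold changes were -0.77 (adjusted p = 0.089) and -1.40 (adjusted p = 0.145). The difference between the 2 kinds of host was not tested. The 12 core proteins of snoRNA particles had 10 positive log2 fold changes and a median of 0.23, with no call by edgeR or DESeq2 and 1 unadjusted p under 0.05. Snu13, which binds box C/D snoRNAs, averaged 82.6 ± 9.71 CPM in CUMS cells and 66.6 ± 3.96 CPM in control cells (0.31 ± 0.13, adjusted p = 0.279), and Nhp2, of box H/ACA particles, 44.3 ± 2.90 CPM in CUMS cells and 35.1 ± 4.91 CPM in control cells (0.34 ± 0.15, adjusted p = 0.331). The summed level of the 12 was 948, 856 and 745 CPM in CUMS replicates 1, 2 and 3, against 819, 741 and 743 CPM in control replicates 1, 2 and 3. CUMS replicate 3 was again the lowest of the CUMS libraries.

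Of 14 factors of nonsense-mediated decay, none passed with edgeR or DESeq2, 1 was higher at an unadjusted p under 0.05, and the median log2 fold change was -0.01. Smg5 averaged 155 ± 16.4 CPM in CUMS cells and 119 ± 8.66 CPM in control cells (0.39 ± 0.12, adjusted p = 0.148), and Smg9 63.8 ± 12.6 CPM in CUMS cells and 51.7 ± 5.35 CPM in control cells (0.30 ± 0.16, adjusted p = 0.415). Of 10 genes of the glucocorticoid receptor and its targets, none passed with edgeR, DESeq2 called 2 lower, 1 was higher and 5 lower at an unadjusted p under 0.05, and 9 log2 fold changes were negative. The receptor gene, Nr3c1, averaged 192 ± 7.15 CPM in CUMS cells and 268 ± 24.6 CPM in control cells, without overlap (-0.48 ± 0.11, edgeR adjusted p = 0.0557). Per1, a clock gene that the receptor induces, averaged 37.4 ± 1.796 CPM in CUMS cells and 50.7 ± 3.13 CPM in control cells (-0.44 ± 0.14, adjusted p = 0.146).

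Rows annotated as microRNA genes lay inside 5 lncRNA rows, Dleu2, Mir17hg, Mir142hg, Snhg20 and Zswim6, and none of the 5 passed with edgeR or DESeq2. Mature microRNAs were not measured here. Some of the microRNAs these hosts carry are shown as RefSeq (GRCm38.p6) gives them, 5′ to 3′, with the seed in capitals. miR-15a-5p and miR-16-5p of Dleu2 share 1 seed, as do miR-17-5p and miR-20a-5p of Mir17hg, while miR-142a-3p of Mir142hg has its own.
miR-15a-5p: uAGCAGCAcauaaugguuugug
miR-16-5p: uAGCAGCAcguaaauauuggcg
miR-17-5p: cAAAGUGCuuacagugcagguag
miR-20a-5p: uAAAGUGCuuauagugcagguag
miR-142a-3p: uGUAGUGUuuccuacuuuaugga

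Dleu2, the host of the miR-15a and miR-16-1 pair that restrains lymphocyte division, had 14.94, 18.9 and 9.24 CPM in CUMS replicates 1, 2 and 3, against 18.7, 19.0 and 25.4 CPM in control replicates 1, 2 and 3. The groups overlapped through CUMS replicate 2, and the log2 fold change was -0.55 ± 0.27 (adjusted p = 0.362). Mir17hg, the host of the miR-17 to miR-92a cluster that promotes lymphocyte growth, had 11.2, 8.62 and 14.7 CPM in CUMS replicates 1, 2 and 3, against 8.04, 7.98 and 11 CPM in control replicates 1, 2 and 3 (0.35 ± 0.28, adjusted p = 0.621). Mir142hg, the host of the blood-cell microRNA miR-142, had 14.5, 11.5 and 11.7 CPM in CUMS replicates 1, 2 and 3, against 10.3, 10.6 and 10.9 CPM in control replicates 1, 2 and 3. Its groups did not overlap, and its log2 fold change was 0.25 ± 0.23 (adjusted p = 0.68). Of 12 microRNA processing genes none passed with edgeR or DESeq2, 1 was lower at an unadjusted p under 0.05, and the median was -0.01. Tnrc6b, of the silencing complex, averaged 334 ± 12.9 CPM in CUMS cells and 407 ± 51.3 CPM in control cells (-0.28 ± 0.11, adjusted p = 0.261), and Prkra, a partner of Dicer, 2.69 ± 0.872 CPM in CUMS cells and 5.07 ± 0.695 CPM in control cells (-0.91 ± 0.46, adjusted p = 0.381).

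None of the next 5 lncRNAs passed the edgeR test. AW112010 had 179, 112 and 102 CPM in CUMS replicates 1, 2 and 3, against 145, 123 and 133 CPM in control replicates 1, 2 and 3, so that CUMS replicate 1 was the highest and CUMS replicates 2 and 3 the lowest of the 6 (log2 fold change -0.03 ± 0.19, with the sign turned under library size alone, 0.01). Tug1 averaged 214 ± 21.7 CPM in CUMS cells and 233 ± 18.1 CPM in control cells (-0.13 ± 0.12, adjusted p = 0.678), and Gm2682 213 ± 23.5 CPM in CUMS cells and 196 ± 28.7 CPM in control cells (0.12 ± 0.13, adjusted p = 0.742). Pvt1 had 10.6, 16.01 and 7.26 CPM in CUMS replicates 1, 2 and 3, against 7.65, 10.3 and 8.36 CPM in control replicates 1, 2 and 3 (0.36 ± 0.31, adjusted p = 0.653). Its neighbour Myc rose to 137 ± 21.6 CPM in CUMS cells, against 87.4 ± 7.63 CPM in control cells (0.65 ± 0.14, adjusted p = 0.0448). Myc passed in 1 of the 6 fits without 1 library, and without CUMS replicates 2 and 3 its log2 fold change was 0.40 (adjusted p = 0.356). Kcnq1ot1 had 19.6, 14.04 and 22.8 CPM in CUMS replicates 1, 2 and 3, against 10.1, 7.03 and 20.3 CPM in control replicates 1, 2 and 3 (0.59 ± 0.35, adjusted p = 0.482), and control replicate 3 lay among the CUMS libraries.

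Gm26917, a chromosome 17 row that shares sequence with ribosomal RNA, had 57.3, 91.9 and 134 CPM in CUMS replicates 1, 2 and 3, against 55.4, 51.9 and 37.9 CPM in control replicates 1, 2 and 3. Its groups did not overlap, although CUMS replicate 1 lay close to control replicate 1. The log2 fold change was 0.96 ± 0.26 (edgeR adjusted p = 0.0932), 1.21 without CUMS replicate 1 (adjusted p = 0.0478), and 0.24 without CUMS replicates 2 and 3. Gm26917 was among the 12 lncRNAs that DESeq2 called higher (DESeq2 adjusted p = 0.00406). Lars2, a mitochondrial leucyl-tRNA synthetase gene whose row is also known to collect ribosomal reads, had 42.7, 95.6 and 78.1 CPM in CUMS replicates 1, 2 and 3, against 40.3, 36.7 and 34.3 CPM in control replicates 1, 2 and 3 (0.96 ± 0.24, adjusted p = 0.0788). DESeq2 called Lars2 higher as well (DESeq2 adjusted p = 0.00336). Both rows were high in the 2 CUMS libraries with fewer detected genes.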

How the data were processed

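The deposited table gives raw counts per gene as the authors made them, whole numbers with no normalization, and CPM values were computed here. The submitters' processing notes list the build mm10 and, among the tools, DESeq2 1.20.0, featureCounts 1.5.0-p3, HISAT2 2.0.5 and fastp. Fragmented mRNA was reverse transcribed with random primers, per the labels' protocols; how mRNA was selected is not stated, so the share of lncRNAs without a poly(A) tail that was captured is unknown. The annotation release is not stated. Exon lengths matched GENCODE M21 in 97.8% of rows, and overlaps and exon bases were read from that annotation.

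The test was that of edgeR 4.0.16 (R 4.3.3): filterByExpr, TMM factors, and the quasi-likelihood F test of CUMS against control without covariates, two-sided, with Benjamini-Hochberg adjustment over 14054 genes. SE was taken from the log2 fold change and its F statistic. CPM given by library or group are TMM-scaled, and the level that chose the rows is not. Chi-square per gene between libraries of a group was 10.0 to 35.7, so no library was a copy. Same-numbered libraries did not vary together (correlations of 0.01, -0.04 and -0.04). Only the edgeR step was checked on simulated counts. Their spread between libraries was set smaller than in these data (biological coefficient of variation 29.8%), so the check does not bear on the calls. Reads carry no molecular identifiers.

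The members, companion lists and naming rule were chosen with earlier results of these data known. Named were called rows, all snoRNA hosts, the 10 highest per kilobase, the 5 largest changes each way, 3 rows on each side of the CPM limit, lncRNAs fixed by name, and in each companion list the genes past the threshold or else the 2 of smallest p. Genes overlapping or adjoining a named row were added. Certain genes taken by that rule are left out of the text.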

Additional observations from a re-analysis of the deposited data

How the results depend on the processing

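The count of all genes called was 184 of 14054 and moved to 704 without a filter, 316 with a stricter filter (mean count of 50 or more, and 1 CPM or more in 3 libraries), 623 with DESeq2 1.42.0, 7 without CUMS replicates 2 and 3, 0 with the marker level as covariate, and 9 to 178 when each library was left out. The count of lncRNAs called was 6 and moved to 15 without a filter, 13 with DESeq2, 0 without CUMS replicates 2 and 3, 0 with the covariate, 3 at a limit of 20 CPM, 3 among rows overlapping no other gene, and 0 to 7 when each library was left out; it was 8 with the stricter filter. The same 6 lncRNAs were called without a filter, with the stricter filter and with DESeq2. As the replicate numbers do not pair the libraries, the replicate block is given here only: it called 71 genes and 1 lncRNA, Arhgap27os3. The companion lists, protein-coding snoRNA hosts included, held 2 calls, against 14 without a filter, 6 with the stricter filter, 13 with DESeq2, 0 without CUMS replicates 2 and 3, 0 with the covariate, and 0 to 3 when each library was left out. The median log2 fold change of the lncRNAs was 0.0294 at a limit of 20 CPM, and that of the snoRNA hosts 0.596 without CUMS replicates 2 and 3. Fits that leave 1 CUMS library assume that it varies like the controls. The cause of these shifts was not tested.

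Of 629 comparisons of 42 named lncRNAs with an alternative, 31 turned sign, in 11 lncRNAs, none of them called. Without CUMS replicates 2 and 3 these were AI506816 (-0.187), Snhg8 (0.427), AW112010 (0.417), Malat1 (0.0363), Gm10076 (0.464) and AC129328.1 (0.153). With the covariate they were AI506816 (-0.423), Snhg8 (0.594), Epb41l4aos (-0.0608), Gm2682 (-0.149), Gm10076 (0.393), 1700071M16Rik (0.0677), Kcnq1ot1 (-1.24) and Mir17hg (-0.154). With library size alone they were Snhg8 (0.00956), AW112010 (0.00585) and Malat1 (0.025), and Malat1 also turned with the stricter filter (0.00626) and the replicate block (0.00754). When each library was left out, log2 fold changes ran over -0.0467 to 0.187 for AI506816, -0.331 to 0.215 for Snhg8, -0.323 to 0.122 for AW112010, -0.122 to 0.154 for Malat1 and -0.404 to 0.122 for Gm10076. Depth limits the rows near 10 CPM, where 82 counts was the lowest value.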
